A study of Homo sapiens with 2 samples.

Results

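ETFB encodes the beta subunit of the electron transfer flavoprotein, the mitochondrial carrier that takes electrons from the dehydrogenases of fatty acid oxidation. Its values were examined with those of 9 other genes of the same route, ETFA, ETFDH, ACADM, ACADS, ACADVL, HADHA, HADHB, CPT1A and CPT2. The members were chosen by name from the pathway, and the set was proposed because ETFB stood far apart between the libraries. All 10 were found by Entrez identifier among 40392 genes, and all 10 were among the 12857 genes above 1 RPKM (reads per kilobase of transcript, scaled to the depth of the library) in at least 1 library. Because ETFB was chosen for its difference, its values are a description. Total RNA from KYSE30, an established cell line of esophageal squamous cell carcinoma, was sequenced in 2 libraries. Cells that stably carried the pIRES2-EGFP vector gave the mock library. Cells stably carrying an expression vector for human RHCG, an ammonia transporter, gave the RHCG library. The labels give no other treatment and do not say whether the transfectants were clones or pools. A group is 1 library, so replicate spread is unknown, nothing was tested between groups, and each difference is one between these libraries.

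Long-chain fatty acids enter mitochondria as carnitine esters, made by CPT1A on the outer membrane and turned back into acyl-CoA by CPT2 on the inner membrane. Acyl-CoA dehydrogenases then take electrons from the chain, and the trifunctional protein of HADHA and HADHB carries out the later steps on long chains. The dehydrogenases pass their electrons to the flavoprotein, a dimer of ETFA and ETFB that binds FAD, and ETFDH hands them on to ubiquinone in the respiratory chain. Inherited loss of ETFA, ETFB or ETFDH causes multiple acyl-CoA dehydrogenase deficiency.

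The promoters of the flavoprotein subunits are shown because the levels of these partners parted between the libraries. Each is the 250 bases before a RefSeq start (GRCh38.p14), read 5′ to 3′ on the gene's strand. Capitals mark exact matches to CCAAT, the box bound by NF-Y, or to GGGCGG, an Sp1 box, on either strand (ATTGG and CCGCCC in reverse). RefSeq gives ETFB an upstream start and a second start inside the gene. The deposited tables hold 1 value per gene, so transcripts from these starts cannot be told apart.
ETFB upstream start, chr19:51366389-51366638, minus strand: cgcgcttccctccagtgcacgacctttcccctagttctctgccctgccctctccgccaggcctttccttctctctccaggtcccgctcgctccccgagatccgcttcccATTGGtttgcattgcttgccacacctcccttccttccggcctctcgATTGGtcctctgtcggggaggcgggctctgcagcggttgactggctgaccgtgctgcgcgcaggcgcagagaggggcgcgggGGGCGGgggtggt
ETFB internal start, chr19:51354843-51355092, minus strand: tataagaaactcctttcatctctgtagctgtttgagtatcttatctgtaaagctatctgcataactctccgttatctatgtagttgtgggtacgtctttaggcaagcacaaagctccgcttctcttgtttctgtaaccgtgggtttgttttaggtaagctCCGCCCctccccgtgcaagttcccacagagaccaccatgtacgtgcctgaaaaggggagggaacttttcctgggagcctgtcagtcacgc
ETFA, chr15:76311470-76311719, minus strand: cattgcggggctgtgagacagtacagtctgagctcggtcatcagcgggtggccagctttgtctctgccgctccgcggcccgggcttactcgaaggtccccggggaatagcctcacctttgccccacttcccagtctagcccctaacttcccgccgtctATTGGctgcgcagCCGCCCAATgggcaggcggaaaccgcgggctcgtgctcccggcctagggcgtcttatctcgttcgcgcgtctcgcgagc
The upstream window of ETFB was 67.2% G or C with 20 CpG dinucleotides, and that of ETFA was 65.6% with 25. The internal ETFB window was 47.6% with 8 CpG, against medians of 58.0% and 11 over 35116 windows. The upstream ETFB window and the ETFA window each held 2 CCAAT boxes and 1 GGGCGG box; in ETFA a CCAAT box overlaps the Sp1 box. CCAAT was in 32.0% and GGGCGG in 42.6% of all windows. None of the other windows of the members held CCAAT, while GGGCGG was in 9 of the 11 windows that RefSeq gives for 9 of the members (all but ETFDH). None of the 11 held an exact match, on either strand, to the consensus direct repeat of PPAR/RXR, the estrogen-related receptor site TNAAGGTCA, the NRF1 consensus or the E-box CACGTG, which were in 0.0171%, 0.854%, 1.03% and 6.34% of all windows.

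HADHA and HADHB, the other pair of partner subunits, lie head to head on chromosome 2, and their windows share 194 bases. The HADHB window is shown beside those of ETFA and ETFB, which lie on chromosomes 15 and 19 and share no promoter. Whether promoter sharing bears on the levels of partner subunits was not tested.
HADHB, chr2:26244689-26244938, plus strand: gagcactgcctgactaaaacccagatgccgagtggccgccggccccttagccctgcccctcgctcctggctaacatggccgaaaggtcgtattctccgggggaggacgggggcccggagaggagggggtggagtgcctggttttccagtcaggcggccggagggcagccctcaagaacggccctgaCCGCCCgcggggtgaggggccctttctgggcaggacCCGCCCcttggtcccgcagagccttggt
This window was 69.2% G or C and held GGGCGG at 2 places, both as CCGCCC.

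The labels were checked first on RHCG, at 413 RPKM in the library labelled with it and listed at 0 in the mock. The scaling of the tables corresponded to about 18900000 reads for the mock library and 22100000 for the other, so that 1 kb of transcript at 1 RPKM rested on about 18.9 and 22.1 reads. Of 12 squamous epithelium markers 10 were listed, with summed levels of 752 RPKM (mock) and 442 RPKM (RHCG); KRT5 and PKP1 were listed at 0 in both. KRT13 (407 and 164 RPKM) and KRT15 (101 and 27.3 RPKM) held most of the difference in the sum. KRT6A (38.8 and 3.51 RPKM) and TP63 (26.2 and 14.4 RPKM) were also at lower values in the RHCG library. So were SOX2 (23.1 and 9.62 RPKM) and DSC3 (3.07 and 2.33 RPKM). EPCAM (66.5 and 120 RPKM) and CDH1 (76.5 and 84.7 RPKM) were at higher values there. So were DSG3 (7.01 and 12.6 RPKM) and KRT14 (3.31 and 4.21 RPKM). The part of these marker differences in the results below was not tested. Markers of cells that burn or store much fat were listed at 0 in both libraries for adipocytes (0 of 3 listed) and hepatocytes (0 of 3), and 1 of 3 striated muscle markers was listed, ACTA1, at 1.03 RPKM in the mock library only. Of 6 fibroblast markers 2 were listed (summed 2.45 and 1.44 RPKM), 1 of 4 for leukocytes (CD68, 15.4 and 8.89 RPKM), and of 4 endothelial markers 0. In these tables a listed 0 can also stand for 1 RPKM or less or a failed estimate.

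ETFB was the single member past 2-fold. Its level of 74.7 RPKM in the mock cells stood against 12.6 RPKM in the RHCG cells, 5.95-fold lower. In bulk RNA, fewer cells with the transcript and less of it per cell cannot be told apart. The log2 ratio of RHCG over mock was −2.48 with 1 RPKM added to both values. Among all genes 3.3% were lower by this rule (a log2 ratio of −1 or less) and 2.74% higher (1 or more). Of the members 1 was lower and 0 were higher. The lower one is the gene the set was built around, so that count says nothing further. The level of ETFB ranked 851 among 11201 protein-coding genes listed in the mock library and 5039 among 10968 in the RHCG library. Its log2 ratio was the 12th lowest of all 12857 genes. None of the 11 genes with a lower ratio had as high a level in the mock library. About 1274 and 250 reads lay behind the values, taking a transcript of 900 bases, and the approximate 95% counting interval of the plain ratio ran from 0.147 to 0.193. Such an interval covers counting error only. It excluded a ratio of 1 for 8 of the 10 members, and for 72.5% of all genes in which it could be computed.

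ETFA, the alpha subunit, had 60.0 RPKM in mock cells and 68.3 RPKM in RHCG cells. That is 13.8% higher (log2 ratio 0.18), in the opposite direction to its partner. ETFDH, the membrane-bound oxidoreductase that accepts electrons from the dimer, was at 6.28 and 5.09 RPKM (log2 ratio −0.26). Its level was thus under that of both subunits in each library. In the order of RPKM among the 10 members, ETFB stood 2nd in the mock library and 8th in the RHCG library. ETFA moved from 3rd to 2nd. Whether near neighbours in this order, such as CPT2 and ACADM, differ beyond replicate spread cannot be said from 1 library each.

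**Figure D1:**
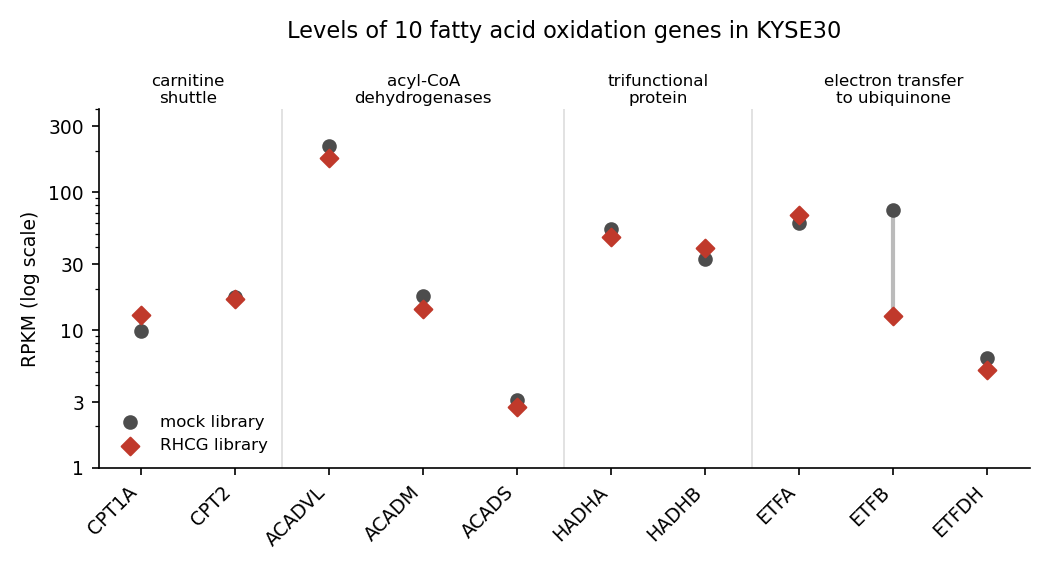
RPKM (log scale) of the 10 members in the mock library (grey circles) and the RHCG library (red diamonds), grouped by role; each point is 1 library and the grey line joins the pair. ETFB runs from 74.7 to 12.6 RPKM, while the symbols of the other genes lie close together.

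The acyl-CoA dehydrogenases pass electrons to the flavoprotein. None of the 3 members among them passed 2-fold. ACADVL, the enzyme for very long chains, had the highest level of the 10 genes in both libraries, at 214 RPKM (mock) and 177 RPKM (RHCG; log2 ratio −0.27). ACADM, for medium chains, was at 17.7 and 14.2 RPKM (−0.31). ACADS, for short chains, had the lowest level of the 10 in both, at 3.08 and 2.75 RPKM (−0.12). With only about 114 and 118 reads behind ACADS, the counting interval of its plain ratio, 0.681 to 1.16, spans 1. All of these differences lay within 1.5-fold.

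The subunits of the trifunctional protein went opposite ways by small amounts. HADHA, which carries the hydratase and hydroxyacyl-CoA dehydrogenase activities, was at 54.2 and 47.2 RPKM (log2 ratio −0.20). HADHB, the thiolase subunit, was at 32.9 and 39.4 RPKM (0.26). Of the carnitine palmitoyltransferases, CPT1A, the regulated entry step, stood at 9.85 RPKM (mock) and 12.9 RPKM (RHCG). Its log2 ratio of 0.36 was the highest of the members. CPT2 was at 17.3 and 16.7 RPKM (−0.04), with a counting interval of the plain ratio of 0.889 to 1.06.

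Across the set, 7 members lay below a log2 ratio of 0 and 3 above, with a median of −0.16. The other 9 members without ETFB ran from −0.31 to 0.36, with a median of −0.12. All 9 lay within 1.5-fold, as did 77.2% of all measured genes (22.8% lay past it), and the median of all measured genes was −0.01 (SD 0.54). ACADM, the member next to ETFB in this order, thus stood at −0.31 against −2.48, with no member between them.

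**Figure D2:**
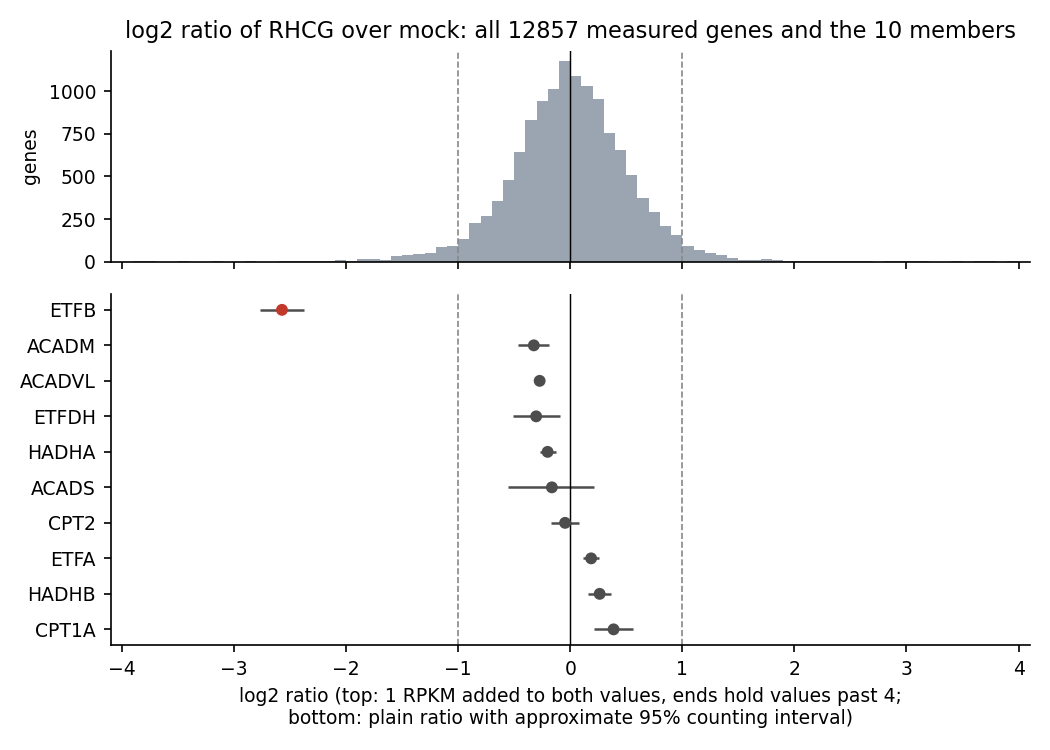
Top, histogram of the log2 ratio of RHCG over mock for 12857 genes with 1 RPKM added to both values (values past 4 stand in the end bins). Bottom, plain log2 ratio of each member with its approximate 95% counting interval; dashed lines mark 2-fold. ETFB lies in the thin left tail and the other 9 members within the central peak.

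Within each library, ETFB stood at 1.25 times the RPKM of ETFA in the mock cells and at 0.184 times in the RHCG cells, a shift of −2.76 on the plain log2 scale. For HADHB over HADHA the ratios were 0.606 and 0.836, a shift of 0.46. The same was computed for 7 further mitochondrial enzymes built of partner subunits, a list chosen after the data were seen. Over the 8 pairs other than the flavoprotein, shifts ran from −0.84 to 1.22, and the median size was 0.50. As ETFB was chosen for its difference, the larger shift of its pair follows largely from that choice. The shift of 1.22 belonged to SUCLG2 over SUCLG1 of succinyl-CoA ligase (0.152 and 0.354), whose alpha subunit SUCLG1 also pairs with another beta subunit. The shift of −0.84 belonged to PCCB over PCCA of propionyl-CoA carboxylase (11.5 and 6.45). SDHB over SDHA, the catalytic subunits of succinate dehydrogenase, went from 2.23 to 1.53.

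**Figure D3:**
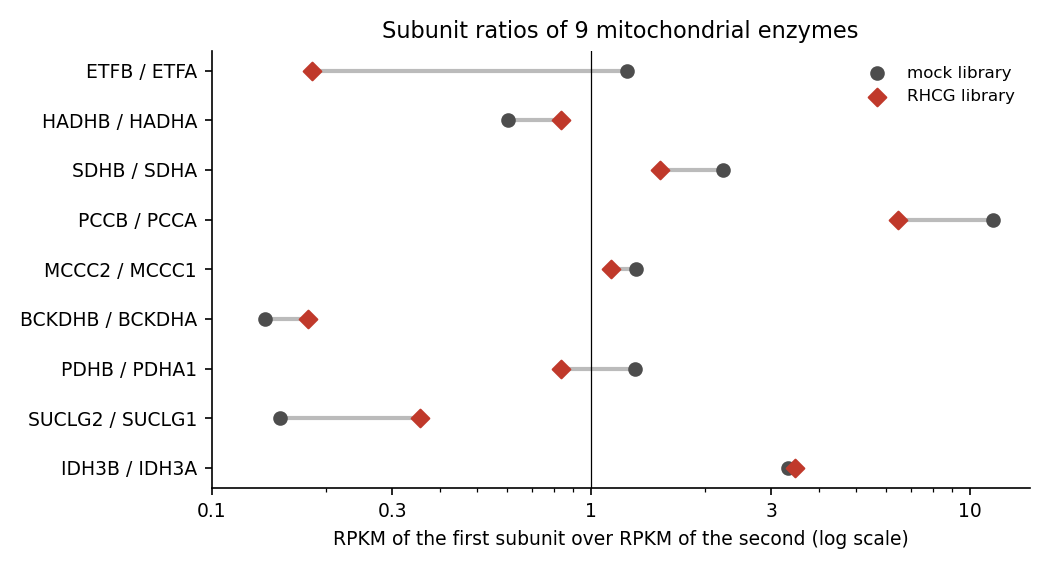
RPKM of one subunit over that of its partner (log scale) for 9 mitochondrial enzymes, in the mock library (grey circles) and the RHCG library (red diamonds). The line of ETFB over ETFA, from 1.25 to 0.184, is longer than those of the 8 other pairs, which the choice of ETFB made likely.

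The genes around ETFB were examined next. On chromosome 19, the median log2 ratio was −0.18 over 820 measured protein-coding genes. The 51 measured genes centred on ETFB had a median of −0.33. With that median taken away ETFB stood at −2.15. The 5 measured genes on each side ran from −1.02 to −0.11, all below 0, with a median of −0.33. One of these 10 was lower by the 2-fold rule, the zinc finger gene ZNF649, at 5.29 and 2.09 RPKM. With the neighbour median removed ZNF649 was at −0.69. The nearest measured gene before ETFB was CTU1, which acts in tRNA thiolation, at 5.28 and 4.82 RPKM. The nearest after it was ZNF577, at 1.53 RPKM in the mock library and listed at 0 in the RHCG library. Between these and ETFB, 6 protein-coding genes before and 17 after were listed at 0 in both libraries. The others on the side of CTU1 were KLK6 (8.60 and 4.91 RPKM) and KLK5 (8.24 and 7.14 RPKM), kallikrein proteases of squamous epithelium, ACP4 (2.36 and 1.02 RPKM) and CLEC11A, at 1.26 RPKM in the mock library and listed at 0 in the RHCG library. On the other side ZNF613 was at 2.61 and 1.23 RPKM and ZNF614 at 3.68 and 2.74 RPKM, and ZNF350, at 1.37 RPKM in mock cells, was listed at 0 in RHCG cells. All 10 of these genes were thus far lower in abundance than ETFB in the mock library. With values listed at 0 set to 1 RPKM and 1 RPKM added, none of them could reach the ratio of ETFB. CLEC11A, ACP4, ZNF577, ZNF613 and ZNF350 could not be called lower by this rule at all. CLEC11A, ZNF577 and ZNF350, listed at 0 in the RHCG library, had to lie below 0. The contrast of these flanking genes with ETFB was thus partly fixed in advance.

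**Figure D4:**
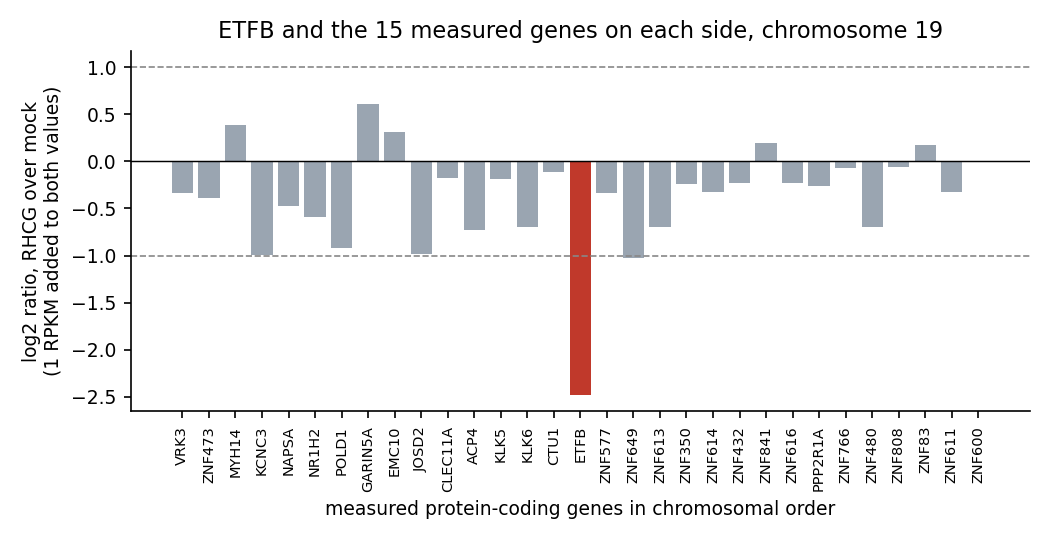
Log2 ratio of RHCG over mock, with 1 RPKM added to both values, for ETFB (red) and the 15 measured protein-coding genes on each side in chromosomal order (grey); dashed lines mark 2-fold. The flanking genes run from −1.02 to 0.60 with a median of −0.29, and ETFB stands at −2.48. Flanking genes of low abundance could not reach that ratio, as values listed at 0 were set to 1 RPKM.

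Taking away the regional median moved each of the other members by the size of that median, by construction. HADHA and HADHB lie in a stretch of chromosome 2 whose medians were 0.24 and 0.21; without them HADHA stood at −0.44 and HADHB at 0.04. ACADS lies in a stretch of chromosome 12 with a median of −0.40 and turned from −0.12 to 0.27. ACADVL went from −0.27 to −0.15. CPT1A, on chromosome 11, stood at 0.25. For ETFA, ETFDH and CPT2 the regional medians were near 0 (0.01, −0.00357 and 0.00923), and that of ACADM was 0.06.

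Annotated genes overlap several members, and strand use in the counting is not given in the sources used here, so reads of opposite strands may have been counted together. In GENCODE an antisense RNA overlaps ETFB, as do an intronic RNA and a gene annotated as protein-coding, both on the same strand. No value of theirs was matched. HADHA and HADHB overlap each other on opposite strands. ACADM overlaps RABGGTB, at 63.6 and 80.8 RPKM, and the small nucleolar RNA SNORD45C, at 426 and 469 RPKM, both on its own strand. ETFDH overlaps PPID, a cyclophilin, at 23.3 and 15.4 RPKM. RABGGTB, SNORD45C and PPID were each above the member they overlap. ETFA contains the pseudogene TYRO3P (3.11 and 3.39 RPKM), and CPT2 overlaps C1orf123 (13.3 and 17.6 RPKM). The pseudogene copies HADHAP1, HADHAP2, HADHBP1 and CPT2P1 were listed at 0 in both libraries.

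The protein-coding genes whose pair of values lay nearest to that of ETFB were IGFBP6, FEN1 and BLOC1S1, by Euclidean distance of log2(RPKM + 1) over 2 libraries. IGFBP6, a binding protein of insulin-like growth factor II, was at 72.8 and 12.8 RPKM (distance 0.042). FEN1, the flap nuclease of DNA replication, was at 79.1 and 16.2 RPKM (0.35). BLOC1S1, a subunit of a lysosome biogenesis complex, was at 62.8 and 15.5 RPKM (0.38). With 2 libraries such likeness says only that both values are close.

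The rest of fatty acid oxidation was described by 8 lists of 108 genes, of which 92 were measured. Of these, 0 were higher and 1 was lower by the 2-fold rule, which is 1.09% past 2-fold against 6.04% of all genes. The median log2 ratio of the 92 was −0.01, as it was over all genes. The one lower gene was HSD17B4, the multifunctional enzyme of peroxisomal oxidation, at 21.2 and 9.80 RPKM (log2 ratio −1.04). It stood at −0.70 with the regional median removed.

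Other dehydrogenases that feed the flavoprotein had a median log2 ratio of −0.04, with 3 of 9 measured genes above 0 and 6 below. DMGDH, listed at 0 in the mock library, had to lie above 0, and ACADSB, listed at 0 in the RHCG library, below 0. ACAD8 lay above by 0.0041 only. With genes listed at 0 set to 0 RPKM, DMGDH and ACADSB left the list and the median was −0.17. ACAD9, which also assembles complex I, was at 24.6 and 13.3 RPKM (−0.84), the lowest of this list. IVD, of leucine breakdown, was at 16.4 and 14.5 RPKM (−0.17). ACADL and SARDH were listed at 0 in both libraries. Of the genes that supply or modify the flavoprotein and its acceptor, 16 of 18 were measured, 11 lay above 0 and the median was 0.09. SLC52A2, a riboflavin transporter, was at 79.6 and 102 RPKM (0.35), and COQ9, of ubiquinone synthesis, at 47.9 and 59.3 RPKM (0.30). ETFBKMT, the methyltransferase that acts on the beta subunit, was listed at 0 in both. Among 8 measured genes of other enzymes that reduce ubiquinone, 5 lay above 0 with a median of 0.25, which was −0.11 with the regional median removed. SDHB was at 92.4 and 73.2 RPKM (−0.33) and SDHA at 41.4 and 47.9 RPKM (0.21, or −0.19 with the regional median removed).

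The list of other mitochondrial beta-oxidation, which also holds genes of propionyl-CoA breakdown, had a median of 0.00 over 11 measured genes. They spread to both sides, from −0.84 to 0.86. The highest was PCCA of propionyl-CoA carboxylase, at 2.28 and 4.94 RPKM. ECHS1, the short-chain hydratase, was at 225 and 167 RPKM (−0.43), and ECI1, the isomerase for unsaturated chains, at 72.4 and 116 RPKM (0.68). The carnitine shuttle and acyl-CoA entry list had a median of −0.06 over 16 genes, with ACSL3, an acyl-CoA synthetase, at 76.9 and 90.9 RPKM (0.24) and SLC27A4, a fatty acid transporter, at 34.8 and 35.6 RPKM (0.03). Peroxisomal genes had a median of −0.14 over 12; ACAA1, the peroxisomal thiolase, was at 29.7 and 21.6 RPKM (−0.44), and SCP2 at 25.2 and 26.9 RPKM (0.09).

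Regulators and PPAR targets had a median of −0.14 over 17 measured genes, 7 above 0 and 10 below. PPARA, PPARGC1B and ACACB, at 1.29, 1.47 and 1.21 RPKM in the mock library, were listed at 0 in the RHCG library. Set to 1 RPKM or less there, they could lie only below 0. With genes listed at 0 set to 0 RPKM, these genes fell under the mean of 1 RPKM and left the list. The median of the remaining genes was −0.04. RXRA, the partner of the PPAR receptors, was at 48.6 and 32.5 RPKM (−0.56), and ESRRA, a receptor that acts on mitochondrial genes, was at 23.5 and 34.3 RPKM (0.53). PPARGC1A and PDK4 were listed at 0 in both libraries. Of 5 genes in the ketone body list 3 were measured. ACAT2, a cytosolic thiolase also used in sterol synthesis, was at 30.1 and 14.7 RPKM (−0.99). BDH1, the mitochondrial hydroxybutyrate dehydrogenase, was at 11.4 and 6.22 RPKM (−0.78), and OXCT1, which activates acetoacetate, at 5.76 and 6.50 RPKM (0.15). The thiolase ACAT1, placed in the list of other mitochondrial beta-oxidation, was at 8.63 and 13.4 RPKM (0.58). The median of −0.78 over the 3 genes thus depends on where the thiolases are listed.

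**Figure D5:**
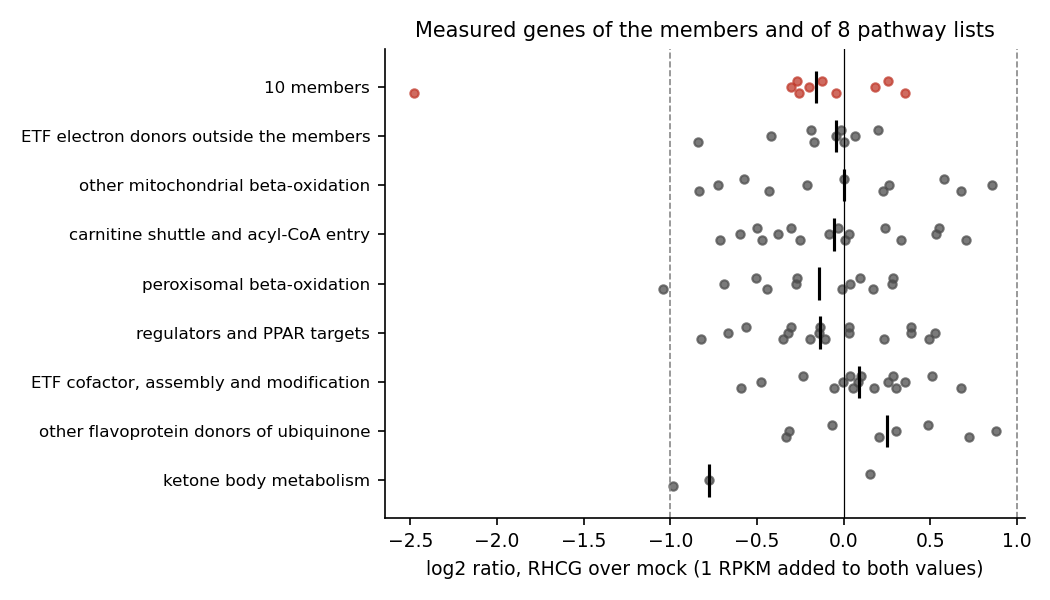
Log2 ratio of RHCG over mock, with 1 RPKM added to both values, for the 10 members (red) and the measured genes of 8 pathway lists (grey); black bars are medians and dashed lines mark 2-fold. Past 2-fold stand ETFB at −2.48 and HSD17B4 at −1.04, and the medians of the lists lie between −0.14 and 0.25 apart from ketone body metabolism, where 3 genes gave −0.78. That median depends on the choice of genes, with ACAT2 in this list and ACAT1 in another.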

How the data were processed

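Ribosomal RNA was removed from total RNA with RiboMinus, and barcoded Ion Total RNA-Seq libraries were sequenced, per the labels' protocols. The submitters' processing notes name hg19 and bedtools 2.25.0; the aligner, the annotation and whether strand was used were not given in the sources used here. Per library, the authors deposited a table headed RPKM, whose values are log2 RPKM with no pseudocount and none below 0. They were unlogged; 112 of 40448 rows with a copy suffix were summed per gene. Symbols came from RefSeq for 38047 of 40392 genes.

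The ratio was log2((RHCG + 1)/(mock + 1)) for genes whose mean reached 1 RPKM and that were listed above 0 in at least 1 library; a gene listed at 0 was set to 1 RPKM. A ratio of 2-fold or more was called. Read numbers are RPKM times the shortest principal GENCODE 29 transcript times a depth read from the steps of small RNA values; 95% intervals are exact (Clopper-Pearson) and cover counting error only. The authors' transcript lengths may differ. The ratio rule was tested on simulated data. Named genes were the members, RHCG, the called and 2 most abundant genes of each list, 5 measured neighbours of ETFB on each side and the 3 genes nearest to ETFB; 1 listed gene is not reported here; those named outside this rule were chosen after their values were seen. Members and lists were chosen with earlier results of these data known. Alternatives were the pseudocount, the filter, the floor, the scaling, the row used, the fold and the regional median. Tools were matplotlib 3.10.9, scipy 1.17.1, pandas 2.3.3 and numpy 2.4.6 under Python 3.11.15.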

Additional observations from a re-analysis of the deposited data

How the results depend on the processing

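No paired analysis was possible because each group is a single library, which also means that none could be omitted. ETFB was the 1 member lower by 2-fold, and 0 were higher, under each setting tried, the 1.5-fold call included. The median of the members lay between −0.20 (mean of at least 5 RPKM, which leaves 9 members) and −0.10 (regional median removed), and the log2 ratio of ETFB between −2.56 (pseudocount of 0.1 RPKM) and −2.15 (regional median removed). Among the members ACADS changed direction, to 0.27 with the regional median removed. List medians near 0 also changed side. With the regional median removed, that of other ubiquinone reducers went from 0.25 to −0.11, flavoprotein cofactor and assembly from 0.09 to −0.04, carnitine shuttle from −0.06 to 0.10 and other mitochondrial beta-oxidation from 0.00 to −0.15. Among genes averaging 5 RPKM or more, the carnitine shuttle was at 0.14, regulators at 0.03 and other mitochondrial beta-oxidation at −0.21. Other dehydrogenases that feed the flavoprotein were at −0.17 under that filter, and also with genes listed at 0 set to 0 RPKM. The ketone body median was −1.07 with the regional median removed. It was 0.00 with no filter on low values, where genes listed at 0 in both libraries enter. Over 354 values under alternatives, 35 moved and 0 called values turned their sign. Of the moved values, 18 were those of single genes (of 269) that passed their approximate counting error, all with the regional median removed. The rest were list medians, some of which moved because genes entered or left the list. With a pseudocount of 0.1 RPKM, ACAT2 (−1.03), ZNF613 (−1.03) and ACP4 (−1.13) passed 2-fold, and with the regional median removed ACAT2 (−1.09) and BDH1 (−1.07) did. Median-of-ratios scaling moved ratios by 0.01. For genes of low abundance such as ACADS the depth limits what can be seen.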
